A study of Mus musculus with 7 samples.

Results

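The genes described here encode secreted proteins of the extracellular matrix: the small leucine-rich proteoglycans and their glycoprotein relative lumican (Lum), decorin (Dcn), osteoglycin (Ogn) and biglycan (Bgn), the large hyaluronan-binding proteoglycan versican (Vcan), the glycoproteins fibronectin (Fn1), fibulin 1 (Fbln1) and periostin (Postn), matrix Gla protein (Mgp) and extracellular matrix protein 1 (Ecm1). They were chosen by symbol in the authors' deposited table and joined by identifier to the count files. All 10 were found among 38924 genes, and all 10 were among the 16226 genes with enough reads to be tested. The libraries were made from livers of mouse fetuses at 12.5 days post coitum, 4 labelled wild type and 3 labelled PCBP2 knockout, called below by the replicate numbers in their titles (1 to 4 and 3 to 5). The labels give no strain, sex, litter, allele or treatment and do not say whether each library came from its own fetus, so the p-values measure only the variation among these 7 libraries, which may be technical. Reads assigned to genes ranged from 31898339 to 44544889 per library, and the members had between 252 reads (Mgp) and 26154 reads (Fn1) in a library.

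In connective tissue the small leucine-rich proteoglycans bind collagen fibrils through curved repeats and set fibril diameter and spacing, while versican binds hyaluronan to form a hydrated, loose matrix typical of embryonic mesenchyme. Fibronectin is laid down early and is the scaffold on which collagen, fibulin and periostin are assembled. In the fetal liver such proteins come mainly from mesenchymal cells, that is stellate cells, portal fibroblasts and the mesothelium with its submesothelial cells, with fibronectin made also by hepatoblasts, and they surround the developing blood cells. Pcbp2 encodes an RNA-binding protein that recognises C-rich stretches, also in 3′ untranslated regions.

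Because Pcbp2 binds C-rich RNA, the 30 bases richest in C were taken from the 3′ untranslated region of each member. For each gene the coding transcript with the longest such region in GENCODE M21 (build mm10) was used. The windows are shown for the 3 members with the smallest p and for biglycan, whose region was the richest in CCCC. Runs of CCC or longer are in capitals.
Lum: catcctctcattccaatacattgaagtatg
Mgp: ctcctagctggctggCCCactccttccttc
Vcan: cctgcctttccgtgcctttcctatcacctc
Bgn: ctcactgCCCCaccacagcttCCCCCtgac
The window of Lum held 8 C in 30 bases, against a median of 15 over 14692 tested genes, and 1.63% of those genes had a poorer one. The windows of Mgp and Vcan held 14 C each, and that of Bgn 17 C. The tetramer CCCC, searched on the transcript strand only and counted with overlaps, occurred in the 3′ untranslated regions of 82.8% of tested genes but not in those of Lum, Mgp, Postn or Ecm1. It occurred 15 times in the 1137 bases of Bgn, 12 times in Fbln1, 4 times in Fn1, 2 times each in Ogn and Vcan, and once in Dcn. The regions of Lum (652 bases), Mgp (209 bases), Postn (738 bases) and Ecm1 (93 bases) were shorter than the median of 1171.5 bases, and a shorter region has fewer chances to hold the tetramer. These are descriptions of letters, not of binding.

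Matched RefSeq promoters (GRCm38.p6) were found for 6 of the 10 members: Ogn, Bgn, Vcan, Fbln1, Postn and Ecm1. The 250 bases before the start are shown for versican and osteoglycin, proteoglycan genes on the same chromosome whose windows differ in base composition and motifs. The search covered both strands for the TATA box core TATAAA, the NF-Y motif CCAAT, the Sp1 box GGGCGG, the AP-1 motif TGACTCA and the TEAD motif CATTCC, and matches are in capitals, a match on the other strand as its reverse complement. The first, on the minus strand of chr13:89742513-89742762, is that of versican.
Vcan: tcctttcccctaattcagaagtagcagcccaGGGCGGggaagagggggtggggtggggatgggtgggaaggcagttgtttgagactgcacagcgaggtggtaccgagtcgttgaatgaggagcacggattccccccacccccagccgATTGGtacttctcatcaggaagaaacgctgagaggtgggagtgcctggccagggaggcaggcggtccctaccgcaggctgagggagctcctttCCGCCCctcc
The second, on the plus strand of chr13:49607765-49608014, is that of osteoglycin.
Ogn: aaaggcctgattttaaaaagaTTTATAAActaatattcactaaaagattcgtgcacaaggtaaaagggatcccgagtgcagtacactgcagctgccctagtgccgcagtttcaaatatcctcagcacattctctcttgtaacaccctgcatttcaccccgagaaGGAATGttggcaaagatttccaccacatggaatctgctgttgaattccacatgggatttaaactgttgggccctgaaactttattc
The Vcan window had 62.4% G and C, 2 GGGCGG matches (present in 32.7% of 32851 promoters) and 1 CCAAT match (33.8%). The Ogn window had 42.0% G and C, 2 overlapping TATAAA matches (present in 12.4%), far upstream of the start, and 1 CATTCC match (12.6%). The TATAAA matches of Postn and Ecm1 lay close to the start, and only Ecm1 held TGACTCA, which 4.46% of promoters hold.

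Pcbp2 was read first, as a check of the labels, and had 165, 329, 347 and 338 CPM in wild-type libraries 1 to 4 and 2.24, 1.39 and 2.22 CPM in knockout libraries 3 to 5. Its means were 295 ± 86.9 CPM (SD, n = 4; reads scaled to library size with TMM factors) in wild type and 1.95 ± 0.486 CPM (SD, n = 3) in knockout. Over all genes, 258 were called higher and 556 lower in knockout (edgeR quasi-likelihood test, Benjamini-Hochberg adjusted p under 0.05). With total-count scaling, which shifted the middle log2 fold change over all genes from 0.01 to 0.14, the calls were 651 higher and 393 lower. Among the 10 members 2 fell, Lum and Mgp, and 0 rose, where 3.43% of all tested genes fell and 1.59% rose (5.02% in either direction). At an unadjusted p under 0.05 there were 5 members, namely Lum, Mgp, Vcan, Dcn and Ecm1, where 21.8% of all tested genes (3535 of 16226) passed that bound. This share is the background for every count at an unadjusted p below. With DESeq2, 1 member rose, Vcan, and 2 fell, Lum and Mgp. The knockout libraries lay wholly below the wild-type ones for Lum and Mgp, where 10.8% of tested genes did so. They lay wholly above for 0 members, where 9.83% of tested genes did so, and 20.6% of genes separated in either direction. The median log2 fold change of the members was -0.29, against 0.01 for all genes tested. In a bulk sample, fewer cells of a type and less RNA per cell cannot be told apart, and this holds for every change below.

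**Figure D1:**
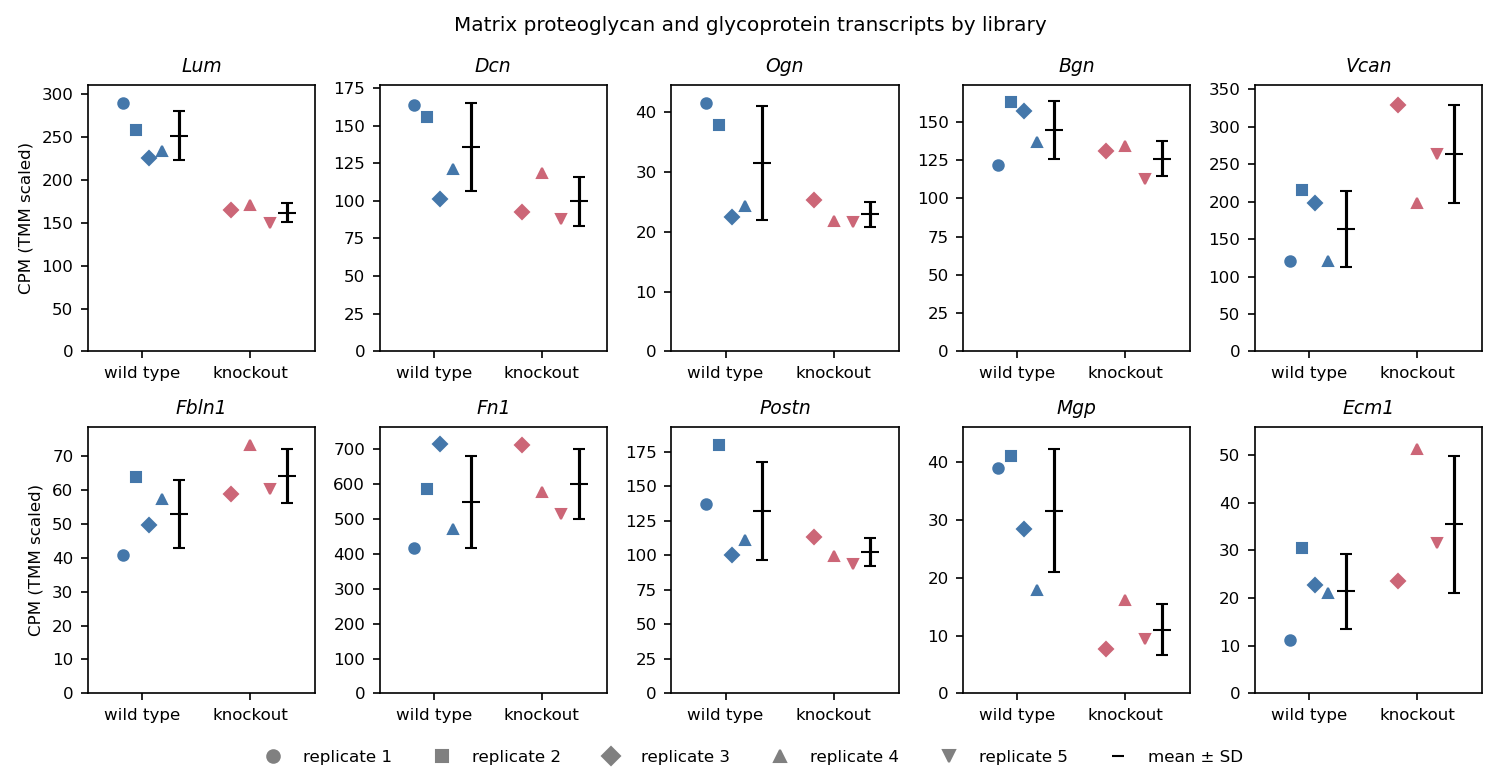
Level of each of the 10 members in each library, in CPM (linear axes from 0), with wild type in blue, knockout in red and the marker showing the replicate number; black bars are mean ± SD (n = 4 and n = 3). The knockout libraries lie below all wild-type ones only for Lum (149.5 to 170.5 against 226 to 289 CPM) and Mgp (7.62 to 16.1 against 17.99 to 41.0 CPM).

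Lumican, a keratan sulphate proteoglycan of collagen fibrils, was the most abundant member per length and the one with the smallest p. Its levels were 289, 258, 226 and 233 CPM in wild-type libraries 1 to 4 and 165, 170.5 and 149.5 CPM in knockout libraries 3 to 5. Every knockout library lay below every wild-type library, and within each group the libraries were close, with a coefficient of variation of 11.4% in wild type and 6.73% in knockout. Lum fell 1.55-fold, from 251 ± 28.7 to 162 ± 10.9 CPM (SD; log2 -0.64 ± 0.11 SE, adjusted p = 0.0135, edgeR). The call was lost on omitting knockout library 5 (adjusted p = 0.0897, edgeR), where the log2 fold change was -0.58. Lum (ENSMUSG00000036446.4) lies on the plus strand of chromosome 10 from 97565128 to 97572703 in mm10.

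Matrix Gla protein, a small vitamin K-dependent protein that keeps cartilage and vessel walls from calcifying, had the largest fold change of the members. It had 39.0, 41.0, 28.4 and 17.99 CPM in wild-type libraries 1 to 4 and 7.62, 16.1 and 9.47 CPM in knockout libraries 3 to 5. The groups did not overlap, although wild-type library 4 and knockout library 4 lay close together. Mgp fell 2.86-fold, from 31.6 ± 10.6 to 11.1 ± 4.46 CPM (log2 -1.51 ± 0.32 by edgeR; adjusted p = 0.0259). It lost significance on omitting wild-type library 1 (adjusted p = 0.0599, edgeR), wild-type library 3 (0.0536), knockout library 3 (0.0615) or knockout library 5 (0.125), with log2 fold changes between -1.30 and -1.56. Mgp (ENSMUSG00000030218.1) lies on the minus strand of chromosome 6 from 136872435 to 136875823.

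Decorin and biglycan, the closely related pair of dermatan and chondroitin sulphate proteoglycans that bind collagen and TGF-beta, did not pass. Dcn had 164, 156, 101 and 121 CPM in wild-type libraries 1 to 4 and 92.6, 118 and 88.0 CPM in knockout libraries 3 to 5. Its groups overlapped, because knockout library 4 stood above wild-type library 3, and the log2 fold change was -0.44 ± 0.17 (adjusted p = 0.169, edgeR). Bgn had 122 to 163 CPM (wild type) and 113 to 134 CPM (knockout), with a log2 fold change of -0.20 ± 0.12 (adjusted p = 0.356, edgeR). The ratio of Bgn to Dcn, both in CPM per kilobase of annotated exon, was 1.07 ± 0.319 in wild type and 1.22 ± 0.134 in knockout; the ranges overlapped. Osteoglycin, a keratan sulphate relative that also regulates fibril assembly, had 41.5, 37.8, 22.5 and 24.2 CPM in wild-type libraries 1 to 4 and 25.4, 21.8 and 21.6 CPM in knockout libraries 3 to 5. Wild-type libraries 1 and 2 were high while libraries 3 and 4 lay in the range of the knockout, and the log2 fold change was -0.46 ± 0.21 (adjusted p = 0.242, edgeR). Ogn lies within the span of Cenpp on the opposite strand, and the sources used here do not give the strand setting of the counting, so reads of the pair may not be fully separated. The same limit holds for Vcan, which overlaps Gm4117 and Gm16318 on the opposite strand, and for Fn1, which overlaps Apol7d. In mm10 Dcn lies at chr10:97479609-97518143, Ogn at chr13:49608046-49624501 and Bgn at chrX:73483602-73495933, all on the plus strand.

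The small proteoglycan genes sit in clusters, and their neighbours were at low levels. Lum lies 46984 bases from Dcn, with Kera (keratocan) 34175 bases beyond Lum and Epyc (epiphycan) 30375 bases beyond Kera. Kera had 0.848 ± 0.469 CPM (wild type) and 0.292 ± 0.168 CPM (knockout), and Epyc 3.92 ± 1.38 and 2.83 ± 0.124 CPM, neither past the threshold (adjusted p = 0.159 and 0.376, edgeR). On chromosome 13 the neighbours of Ogn were Omd (osteomodulin), at no more than 0.0732 CPM and not tested, Aspn (asporin; adjusted p = 0.704, edgeR) and Ecm2 (adjusted p = 0.107, edgeR), with 0.512 ± 0.171 CPM (wild type) and 1.02 ± 0.0431 CPM (knockout) for Ecm2. Of the 13 other small leucine-rich proteoglycans 10 were tested, of which 1 fell and 0 rose (3.43% and 1.59% over all genes). Their median log2 fold change was -0.38, and -0.08 without knockout library 3. The one that fell was Fmod, fibromodulin, the closest relative of lumican, which shares its binding site on collagen. Fmod had 44.99, 52.8, 35.2 and 44.1 CPM in wild-type libraries 1 to 4 and 29.8, 30.9 and 24.7 CPM in knockout libraries 3 to 5. The groups did not overlap, and the log2 fold change of -0.64 ± 0.14 (adjusted p = 0.0347, edgeR) equalled that of Lum to 2 decimals. The Fmod call was lost with total-count scaling (adjusted p = 0.0795, edgeR) and without wild-type library 1 (0.0691), wild-type library 4 (0.0799) or knockout library 3 (0.0591), 4 (0.0683) or 5 (0.165). Prelp, a basement membrane-anchoring relative, had 1.93 ± 0.432 and 0.874 ± 0.309 CPM (adjusted p = 0.0682, edgeR). DESeq2 called it lower (adjusted p = 0.0164), which made 2 genes of the list lower.

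Versican was higher on average in knockout, but its spread was wide. Its levels were 120.5, 215, 198 and 120.4 CPM in wild-type libraries 1 to 4 and 329, 198 and 263 CPM in knockout libraries 3 to 5. Wild-type libraries 2 and 3 lay beside knockout library 4, so the groups overlapped. The means were 164 ± 50.3 CPM (wild type) and 263 ± 65.2 CPM (knockout), a log2 fold change of 0.69 ± 0.23 (adjusted p = 0.121, edgeR). DESeq2 called it (adjusted p = 0.0346), as did the authors' deposited table (log2 fold change 0.66, adjusted p = 0.0331), and limma-voom did not (adjusted p = 0.120). The authors' deposited table also has Lum (log2 fold change -0.63, adjusted p = 7.67e-06) and Mgp (log2 fold change -1.43, adjusted p = 7.91e-06) past the threshold and none of the other 7 members. Vcan lies at chr13:89655312-89742509 on the minus strand.

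**Figure D2:**
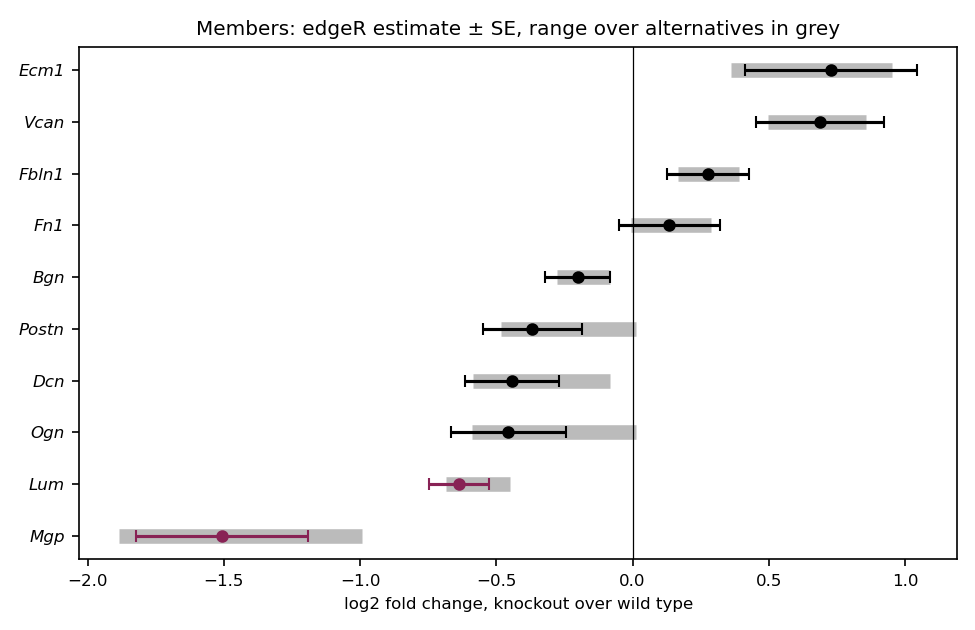
Log2 fold change, knockout over wild type, of each member: points are edgeR estimates with SE (purple where the adjusted p is under 0.05, black otherwise), and grey bars span the estimates over 14 alternative settings. Lum and Mgp stay below 0 throughout (up to -0.45 and -0.99) and Vcan and Ecm1 above it (from 0.50 and 0.36), while the bars of Ogn, Postn and Fn1 reach 0.

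Of the genes of the hyaluronan matrix, Hapln1 and Has2 rose. In the list of 20 genes of the hyaluronan system and other large proteoglycans, 16 were tested, of which 2 rose and 0 fell (1.59% and 3.43% over all genes). The median log2 fold change was 0.01, and 3 of the 16 had an unadjusted p under 0.05 (21.8% over all genes). Hapln1, the link protein that locks versican onto hyaluronan and whose gene lies 43659 bases from Vcan on chromosome 13, had 7.96, 10.03, 7.50 and 7.61 CPM in wild-type libraries 1 to 4 and 20.4, 10.7 and 17.97 CPM in knockout libraries 3 to 5. Its knockout libraries lay above all wild-type ones, library 4 only narrowly (log2 0.98 ± 0.21 by edgeR; adjusted p = 0.0269). Has2, the main hyaluronan synthase of embryonic mesenchyme, rose from 5.32 ± 1.38 to 9.17 ± 0.526 CPM, with every knockout library above every wild-type one (log2 0.79 ± 0.20 by edgeR; adjusted p = 0.0487). The hyaluronan receptor Cd44 had 40.2 ± 6.83 and 40.6 ± 7.92 CPM, and Spock1, next by p in the list, 1.37 ± 0.469 and 0.732 ± 0.0732 CPM (adjusted p = 0.132, edgeR). The Hapln1 call was lost with limma-voom (adjusted p = 0.0503) and without wild-type library 1 (0.0642), 3 (0.0777) or 4 (0.0751) or knockout library 3 (0.0687) or 5 (0.125), and the Has2 call was lost whichever library was left out other than wild-type library 2 (0.083 to 0.146) and, with at least 5 CPM in 3 libraries, at 0.0509. Neither passed in all settings.

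Heart muscle genes followed the same order as Vcan and Hapln1 over the knockout libraries. Myh6, the atrial myosin heavy chain, had 37.9, 2.18 and 11.4 CPM in knockout libraries 3, 4 and 5 and at most 0.782 CPM in wild type. Knockout library 3 was thus the highest and library 4 the lowest for Myh6, Vcan and Hapln1 alike, while Has2 did not follow this order. The summed erythroid and skeletal muscle markers had the same order, with a smaller relative spread than the heart markers and libraries 3 and 5 close together. In knockout libraries 3, 4 and 5 the erythroid markers summed to 15970, 11995 and 15521 CPM and the skeletal muscle markers to 129, 97.9 and 121 CPM. The summed endothelial and hepatoblast markers were lowest in knockout library 5 instead. The summed level of 14 heart markers was 449, 113 and 221 CPM in knockout libraries 3, 4 and 5 and 90.7 to 172 CPM in wild type. Of 13 tested 3 rose (Myh6, Nppa and Tnni3), where 1.59% of all tested genes rose, and the median log2 fold change was 1.20. With limma-voom 0 rose, and without wild-type library 2 or knockout library 4 there were 5. With at least 5 CPM in 3 libraries 0 rose, because Myh6, Nppa and Tnni3 did not pass that filter and were not tested. Without knockout library 3 the log2 fold change of Vcan was 0.50 (adjusted p = 0.293, edgeR), and without knockout library 4 it was 0.86 (0.101). The part of heart tissue in these levels was not tested.

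**Figure D3:**
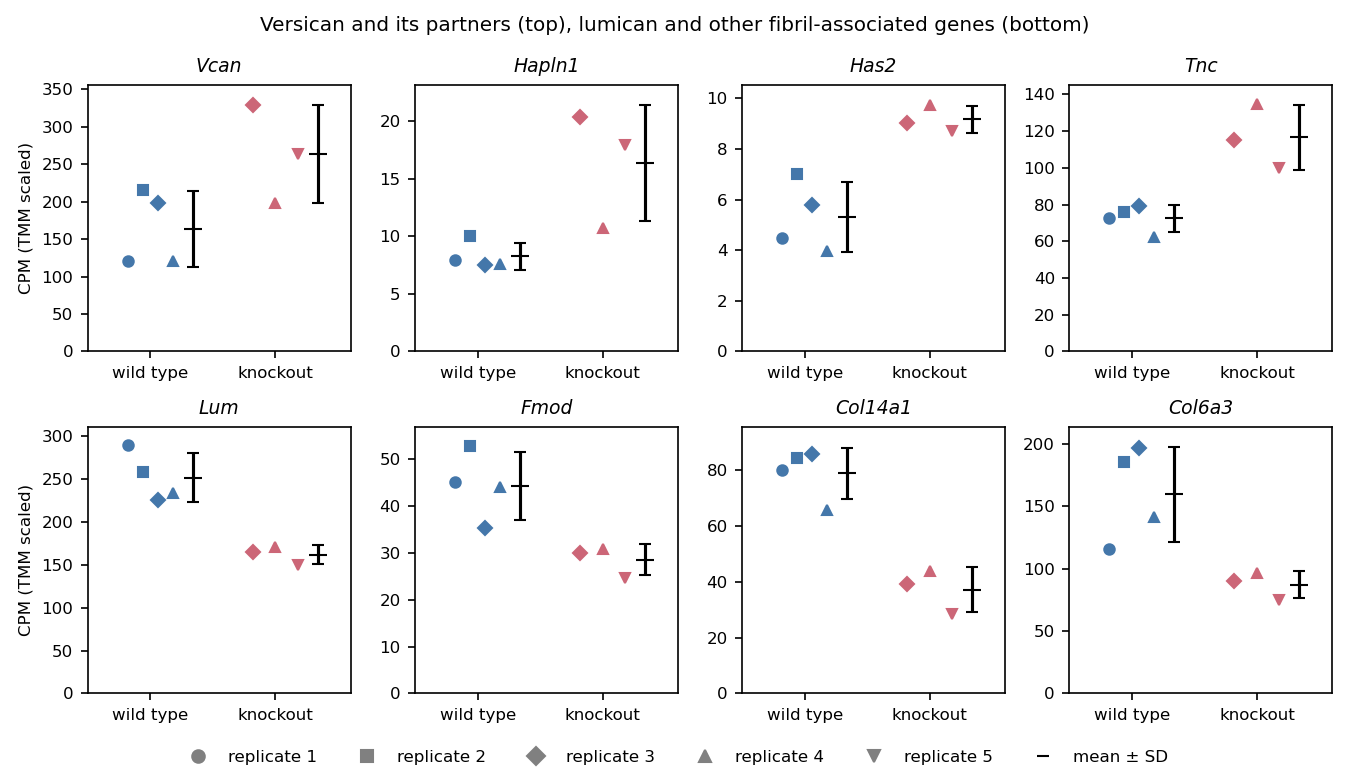
Level by library (CPM, linear axes from 0; marker by replicate number, wild type blue, knockout red; bars mean ± SD, n = 4 and n = 3) of versican with its partners Hapln1, Has2 and Tnc in the top row and of lumican with Fmod, Col14a1 and Col6a3 in the bottom row. All panels but that of Vcan show groups that do not overlap, higher in knockout in the top row and lower in the bottom row. The genes set beside Vcan and Lum were chosen by small p in these data, which favours such separation. Of all tested genes, 9.83% lay wholly above and 10.8% wholly below in knockout. Cd44, Fbln1 and Fn1, which are not in these panels, had groups that overlapped.

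Fibronectin, the adhesive scaffold protein of embryonic matrix, was the member with most reads and did not differ beyond its spread. It had 417, 588, 714 and 473 CPM in wild-type libraries 1 to 4 and 712, 577 and 515 CPM in knockout libraries 3 to 5. The highest library of each group reached the same level, and the log2 fold change was 0.13 ± 0.19 (adjusted p = 0.719, edgeR), and -0.0044 without knockout library 3. Fibulin 1, which binds fibronectin and versican and stabilises elastic fibres, had 52.9 ± 9.92 CPM (wild type) and 64.0 ± 8.05 CPM (knockout) (log2 0.28 ± 0.15 by edgeR; adjusted p = 0.317), and wild-type library 2, at 63.8 CPM, lay above 2 of the knockout libraries. Periostin, an integrin-binding matricellular protein that promotes collagen crosslinking, had 100.1 to 179.6 CPM (wild type) and 93.8 to 113 CPM (knockout) (log2 -0.37 ± 0.18 by edgeR; adjusted p = 0.268). Ecm1, which binds perlecan and is made by hepatocytes in the adult liver, varied widely in both groups. It had 11.2, 30.5, 22.8 and 20.998 CPM in wild-type libraries 1 to 4 and 23.5, 51.3 and 31.5 CPM in knockout libraries 3 to 5. Wild-type library 1 was low and knockout library 4 high, and the log2 fold change of 0.73 ± 0.32 (adjusted p = 0.214, edgeR) was 0.36 without knockout library 4. In mm10 Fn1 lies at chr1:71585520-71653200 and Ecm1 at chr3:95734147-95739569 on the minus strand, and Fbln1 at chr15:85205949-85286535 and Postn at chr3:54361109-54391037 on the plus strand.

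Between genes, levels were compared per kilobase of exon in GENCODE M21, a length that counts the exons of every annotated isoform and so understates genes with long minor isoforms. In wild type the order was Lum at 103 ± 11.7, Fn1 at 46.9 ± 11.3, Mgp at 26.6 ± 8.95, Bgn at 23.7 ± 3.10, Dcn at 23.2 ± 5.01, Postn at 15.2 ± 4.07, Ogn at 12.3 ± 3.72, Fbln1 at 12.1 ± 2.27, Vcan at 11.3 ± 3.48 and Ecm1 at 8.47 ± 3.14 CPM per kilobase. The steps from Lum to Fn1 and from Fn1 to Mgp exceeded the summed SDs of the neighbours, and the others did not. In knockout the order was Lum at 66.1 ± 4.45, Fn1 at 51.5 ± 8.59, Bgn at 20.6 ± 1.86, Vcan at 18.2 ± 4.51, Dcn at 17.1 ± 2.80, Fbln1 at 14.7 ± 1.84, Ecm1 at 14.0 ± 5.68, Postn at 11.7 ± 1.15, Mgp at 9.32 ± 3.76 and Ogn at 8.94 ± 0.821 CPM per kilobase. Versican thus stood near the end of the order in wild type and just after Fn1 and Bgn in knockout, and Mgp went the other way, while neighbours from Bgn onward differed by less than their summed SDs. The ratio of Vcan to Lum on this scale was 0.0705, 0.141, 0.149 and 0.0874 in wild-type libraries 1 to 4 and 0.337, 0.197 and 0.298 in knockout libraries 3 to 5. The ranges did not overlap, and each knockout library carried more versican relative to lumican than any wild-type library. Lum had already separated on its own. The ranges of the other Vcan ratios overlapped: to Dcn per kilobase 0.297 to 0.790 in wild type and 0.676 to 1.43 in knockout, to Pdgfra in CPM 0.762 to 1.10 and 0.977 to 1.51, and to Col1a1 in CPM 0.164 to 0.325 and 0.309 to 0.653. As the members were picked with these results known, no test is given for these ratios.

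Within the groups some members varied together from library to library. After each group's mean was taken out of the log2 CPM, Lum correlated with Dcn at r = 0.89 and with Ogn at 0.86, and Ogn with Postn at 0.85. Wild-type libraries 1 and 2 were the high libraries for Dcn, Ogn and Postn. Fn1 went with Bgn (0.84) and Vcan (0.80), and Fbln1 with Ecm1 (0.92). Bgn also went with Ecm1 (0.72) and Fbln1 (0.68), both above its value with Vcan (0.63), whereas Lum and Vcan had r = -0.31. These correlations are over 7 libraries that are shared by all genes, with group means removed, and are given as description only.

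**Figure D4:**
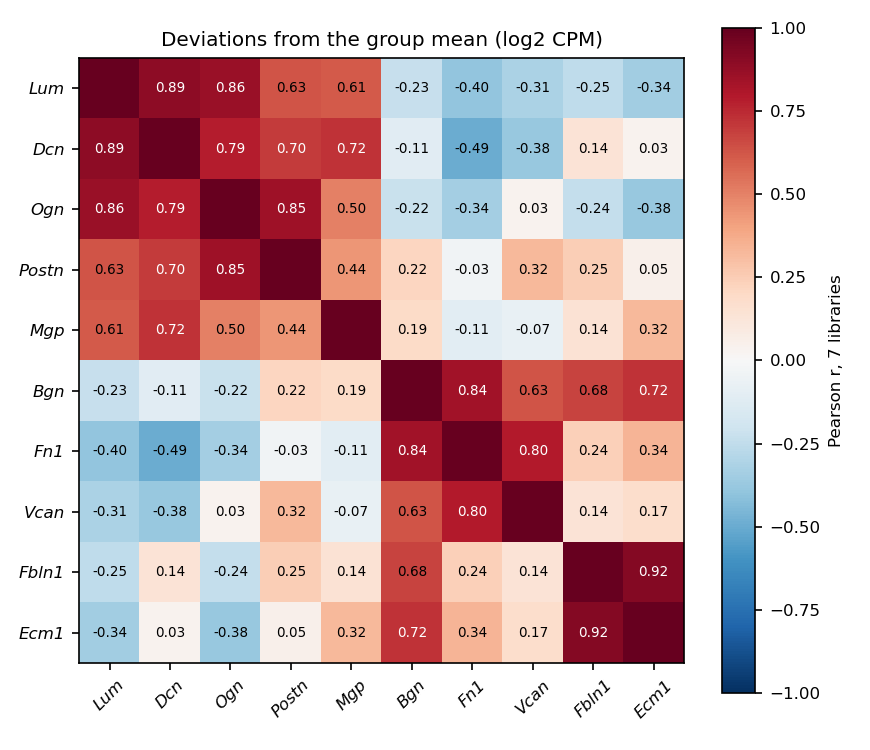
Pearson correlation between members of the deviations of log2 CPM from the group mean over the 7 libraries (red positive, blue negative; the diagonal is 1). Values among Lum, Dcn, Ogn, Postn and Mgp run from 0.44 to 0.89 and among Bgn, Fn1 and Vcan from 0.63 to 0.84; Fbln1 and Ecm1 pair at 0.92, and Bgn is at 0.68 and 0.72 with these.

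Among 11256 tested genes with at least 5 CPM on average, those whose log2 CPM followed a member most closely over the 7 libraries, group difference included, were looked up. For Lum these were Gbp2, Ifi35 and Ctss (r = 0.99 each). All 3 fell in knockout, which a choice by likeness to Lum favours. For Mgp they included Sec14l1 (0.97) and Inpp5k (0.96), and for Vcan they were Clasp1 (0.99), Lpp (0.98) and Adnp2 (0.98). For Dcn the nearest was Npnt, the integrin ligand nephronectin (0.98), followed by Myo1d and Rnase4 (0.96 each). The nearest genes were Parp9, Colec12 and Rnf213 for Ogn, Smpd1, Pdxk and Adamts2 for Bgn, Ddx58, Cav1 and Rnf213 for Postn, Plxna3, Gtf2i and Kirrel for Fbln1, Fyn, Lama1 and Hmcn1 for Fn1, and Dos, Zfp710 and Wdr60 for Ecm1, with r from 0.936 to 0.998. These likenesses are descriptions over the 7 libraries, and the highest r among so many genes is large by selection.

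Among collagens, Col14a1 and Col6a3 fell. Of 14 fibrillar and associated collagens these 2 fell and 0 rose (2 without wild-type library 2), where 3.43% of all tested genes fell and 1.59% rose. The median log2 fold change was -0.19, and 3 of the 14 had an unadjusted p under 0.05 (21.8% over all genes). Col14a1, a collagen that sits on fibril surfaces and binds decorin, fell from 78.8 ± 9.14 to 37.1 ± 7.96 CPM (log2 -1.09 ± 0.16 by edgeR; adjusted p = 0.00595), and the call held in all 14 alternatives. Col6a3, a chain of the microfibrillar collagen VI that binds decorin, biglycan and lumican, fell from 160 ± 38.1 to 87.2 ± 10.9 CPM (log2 -0.87 ± 0.18 by edgeR; adjusted p = 0.0243). The Col6a3 call was lost on omitting wild-type library 3 (0.0583) or knockout library 4 (0.0509) or 5 (0.125). Col1a1, the main fibrillar chain, had 705 ± 208 CPM (wild type) and 552 ± 76.4 CPM (knockout) (adjusted p = 0.357, edgeR). The next by p in this list was the cartilage collagen Col2a1, at 5.38 ± 3.52 and 12.8 ± 3.47 CPM (adjusted p = 0.108, edgeR, but 0.00972 without wild-type library 2 and 0.0462 with no filter on low counts).

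Most elastic fibre genes had negative fold changes. Of 18 such genes 2 fell and 0 rose (3.43% and 1.59% over all genes), and 3 had an unadjusted p under 0.05 (21.8% over all genes). The median was -0.23, and 16 of the 18 had a negative sign, against 7774 of the 16226 genes tested. Fbln5, a fibulin needed for elastic fibre assembly, had 29.2 ± 8.27 and 15.7 ± 1.62 CPM (log2 -0.89 ± 0.20 by edgeR; adjusted p = 0.0339), and Eln, elastin, 14.5 ± 4.73 and 6.45 ± 2.28 CPM (log2 -1.16 ± 0.29 by edgeR; adjusted p = 0.0471). Both calls were lost with total-count scaling (0.0638 and 0.0716), and that of Eln with limma-voom (0.0553). They were also lost on omitting wild-type library 1 (Fbln5, 0.0703), wild-type library 2, 3 or 4 (Eln, 0.0547, 0.0974 and 0.0779), knockout library 3 (0.0791 and 0.0934), knockout library 4 (Fbln5, 0.0683) or knockout library 5 (0.141 and 0.161). Fbln2, a fibulin of mesenchyme, had 163 ± 29.3 and 123 ± 24.0 CPM (adjusted p = 0.182, edgeR).

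Matricellular genes changed in both directions. Of 26 matricellular and adhesive glycoproteins found by name, 24 were tested, 2 rose and 1 fell (1.59% and 3.43% over all genes), with a median of 0.06. An unadjusted p under 0.05 was found for 13 of the 24 (21.8% over all genes). The knockout libraries lay wholly above for 5 and wholly below for 4 (9.83% and 10.8% over all genes). An unadjusted p under 0.05 was also found for 4 of 10 other small leucine-rich proteoglycans and 3 of 16 hyaluronan system genes. It was found for 3 of 14 collagens and 3 of 18 elastic fibre genes. Tnc, tenascin C, an embryonic glycoprotein that binds versican and fibronectin, rose from 72.5 ± 7.41 to 117 ± 17.5 CPM (log2 0.68 ± 0.12 by edgeR; adjusted p = 0.0143), and the call held in all 14 alternatives. Cyr61, a matricellular protein induced by growth factors and stretch, rose from 11.0 ± 2.74 to 21.9 ± 4.15 CPM (log2 0.99 ± 0.20 by edgeR; adjusted p = 0.0232), a call lost on omitting wild-type library 3 (0.0625) or knockout library 4 (0.0811) or 5 (0.0789). Thbs2, thrombospondin 2, which limits vessel growth and shapes collagen fibrils, fell from 13.0 ± 2.29 to 7.59 ± 0.604 CPM (log2 -0.77 ± 0.16 by edgeR; adjusted p = 0.0226), a call lost with total-count scaling (0.0565) and without knockout library 4 (0.0503) or 5 (0.121).

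The enzyme lists differed in their calls. Of 19 crosslinking and collagen folding enzymes 1 rose and 1 fell (5.02% over all genes in either direction), with a median of -0.02. In this list 6 genes had an unadjusted p under 0.05 (21.8% over all genes). The knockout libraries lay wholly above for 2 and wholly below for 2 (9.83% and 10.8% over all genes). Plod2, the lysyl hydroxylase of collagen crosslinks, rose from 77.1 ± 3.54 to 116 ± 23.0 CPM (adjusted p = 0.0253, edgeR). Tgm2, the transglutaminase that crosslinks fibronectin, fell from 173 ± 6.01 to 115 ± 11.6 CPM (adjusted p = 0.00873, edgeR). The Tgm2 call was lost on omitting knockout library 5 (0.0723), and the Plod2 call without wild-type library 1 (0.0542), 3 (0.0722) or 4 (0.0691) or knockout library 4 (0.0645) or 5 (0.079). P4ha1, a collagen prolyl hydroxylase subunit, had 97.6 ± 8.91 and 138 ± 38.2 CPM (adjusted p = 0.102, edgeR, but 0.0395 without knockout library 3, and 0.0411 with DESeq2). Of 22 tested matrix proteases and inhibitors 0 rose and 0 fell with edgeR, 4 had an unadjusted p under 0.05 (21.8% over all genes) and DESeq2 called 1 higher, Adamts20. This gene, a protease that cuts versican, had the smallest p (log2 0.92; adjusted p = 0.116, edgeR; 0.0414 without wild-type library 2 and 0.0462 without knockout library 3), followed by Mmp15 (adjusted p = 0.129, edgeR; 0.0413 without wild-type library 2) and Adamts15 (0.149). Of 31 enzymes that build glycosaminoglycan chains 0 rose and 0 fell with edgeR, 1 had an unadjusted p under 0.05 (21.8% over all genes) and DESeq2 called 1 lower, Hs6st1, a heparan sulphate sulphotransferase (log2 -0.36; adjusted p = 0.0975, edgeR; 0.0433 without wild-type library 2). Chpf, a chondroitin polymerising factor, and Ext2, a heparan sulphate polymerase, came next (adjusted p = 0.245 and 0.295, edgeR). The log2 fold changes of these 31 lay between -0.42 and 0.28.

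Of 19 basement membrane genes 0 rose and 0 fell with edgeR, 2 had an unadjusted p under 0.05 (21.8% over all genes), among them Nid2 (adjusted p = 0.161, edgeR), and the median was 0.09. Without wild-type library 2 there were 2 that rose. Lama4, the laminin chain of vessels, was one of these, at 24.6 ± 9.58 and 33.8 ± 2.74 CPM (adjusted p = 0.288, edgeR, and 0.0095 without that library). Of 23 matrix receptors 1 rose and 1 fell (1.59% and 3.43% over all genes), with a median of 0.10, and 7 had an unadjusted p under 0.05 (21.8% over all genes). Itgb8, a subunit of an integrin that activates TGF-beta, had 9.15 ± 1.20 and 14.8 ± 2.89 CPM (adjusted p = 0.038, edgeR). Itgb3, a subunit of the platelet integrin, had 97.6 ± 15.2 and 59.4 ± 7.44 CPM (adjusted p = 0.0173, edgeR), and is also on the megakaryocyte list. Itga8, an integrin subunit of mesenchyme, had 63.1 ± 13.9 and 42.98 ± 1.45 CPM (adjusted p = 0.0733, edgeR; 0.013 with DESeq2). Itgb8 lost its call without wild-type library 1 (0.0844), 3 (0.0591) or 4 (0.102) or knockout library 3 (0.0926) or 5 (0.129), and Itgb3 without knockout library 4 (0.0647) or 5 (0.0935). Of 22 genes of TGF-beta and BMP signalling, which controls many matrix genes, 1 rose and 0 fell (1.59% and 3.43% over all genes), with a median of 0.16. By sign 19 were positive and 3 negative, against 8452 positive of the 16226 genes tested. The knockout libraries lay wholly above for 7 (9.83% over all genes) and wholly below for 0 (10.8%). An unadjusted p under 0.05 was found for 8 (21.8%). The gene that rose was the growth factor Bmp4, at 7.17 ± 2.03 and 13.0 ± 2.11 CPM (adjusted p = 0.0426, edgeR). Its call was lost on omitting any 1 library other than wild-type library 2 (0.0537 to 0.134). Skil, a feedback inhibitor of the pathway, did not pass (adjusted p = 0.0763, edgeR), and DESeq2 called 3 genes of this list higher.

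Markers of the cells that make matrix did not move as one. Of 22 stellate, perivascular and fibroblast markers 2 rose (Twist1 and Acta2) and 2 fell (Lrat and Thy1), where 1.59% of all tested genes rose and 3.43% fell. DESeq2 called 4 higher, as did edgeR without knockout library 3, and without knockout library 5 there were 0 calls. The median of the list was -0.02, and their summed level was 1102 to 1462 CPM (wild type) and 1338 to 1421 CPM (knockout). Pdgfra, a receptor of fetal mesenchyme, had 170 ± 31.4 CPM (wild type) and 213 ± 8.44 CPM (knockout) (adjusted p = 0.204, edgeR). Relative to Pdgfra, Lum was 1.24 to 2.16 in wild type and 0.690 to 0.840 in knockout, and Mgp 0.114 to 0.290 and 0.0349 to 0.0794. For both every knockout library lay below every wild-type one. Lum and Mgp had already separated in CPM and Pdgfra was higher on average in knockout, so these ratios are not a separate result. Relative to Col1a1 the ranges overlapped for both, at 0.263 to 0.583 and 0.266 to 0.328 for Lum and 0.0245 to 0.0786 and 0.0151 to 0.0251 for Mgp. Lrat, the enzyme with which stellate cells store vitamin A, fell from 5.24 ± 2.27 to 1.10 ± 0.365 CPM (log2 -2.23 ± 0.41 by edgeR; adjusted p = 0.0161, but 0.079 without knockout library 5), while Twist1, a transcription factor of embryonic mesenchyme, rose from 27.0 ± 2.47 to 43.7 ± 3.05 CPM (adjusted p = 0.00759, edgeR, but 0.0608 without that library). Acta2, the smooth muscle actin of perivascular cells, had 88.8 ± 20.3 and 134 ± 0.723 CPM, and Thy1, a fibroblast surface protein, 1.35 ± 0.349 and 0.418 ± 0.159 CPM. Acta2 lost its call without any 1 library other than wild-type library 2 (0.0855 to 0.155) and with at least 5 CPM in 3 libraries (0.0506), and Thy1 without wild-type library 1 (0.053) or 4 (0.0565) or any 1 knockout library (0.0603 to 0.0948).

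Markers of other cell types changed between the groups. Over all tested genes 3.43% fell and 1.59% rose. Of 13 erythroid markers 11 fell (median -1.58), with a sum of 49847 to 89259 CPM (wild type) and 11995 to 15970 CPM (knockout). Of 12 megakaryocyte markers 8 fell (median -0.72; 411 to 547 and 255 to 267 CPM) and of 12 macrophage markers 6 fell (-0.65; 454 to 509 and 308 to 410 CPM). Of 18 endothelial markers 6 rose (0.47; 359 to 494 and 488 to 587 CPM). An unadjusted p under 0.05 was found for 13 erythroid, 10 megakaryocyte, 7 macrophage and 11 endothelial markers (21.8% over all genes). It was also found for 9 of 22 stellate, perivascular and fibroblast, 6 of 12 mesothelial, 2 of 16 hepatoblast and 8 of 13 heart markers. Without knockout library 5 the calls were 7 erythroid, 2 megakaryocyte, 2 macrophage and 1 endothelial. The megakaryocyte calls were also 3 without wild-type library 3 or knockout library 4, 4 without wild-type library 4 and 5 with total-count scaling, the macrophage calls 3 without wild-type library 4, and the endothelial calls 3 without wild-type library 1 or 4 and 2 without knockout library 4. Of 12 mesothelial markers 1 fell (Gpm6a; -0.22; 1201 to 1415 and 1155 to 1348 CPM), a call lost with total-count scaling (adjusted p = 0.0563, edgeR) and without wild-type library 1 (0.0512) or 4 (0.071) or knockout library 4 (0.0821) or 5 (0.139). Of 16 hepatoblast markers 1 fell (Ahsg; -0.13; 6604 to 13890 and 8230.3 to 10578 CPM), which shows the labelled tissue in both groups. The hepatoblast calls were 0 without knockout library 4 or 5, 3 without wild-type library 2, and 2 with DESeq2 or no filter on low counts. Markers of skeletal muscle (12 tested, median -0.02), cartilage and bone (10, 0.14), gut, stomach and pancreas (12, 0.02) and adrenal and neural crest tissue (8, -0.84) had 0 calls with edgeR. At an unadjusted p under 0.05 they had 2, 3, 2 and 0 genes in the same order, against 21.8% of all tested genes. DESeq2 called 1 cartilage and bone marker higher and 1 lower, and 1 gut marker lower, and without wild-type library 2 the cartilage and bone calls were 2 higher and 1 lower, without knockout library 3 1 lower. Adrenal and neural crest markers summed to 57.0 CPM in wild-type library 2 and to 6.92 to 17.0 CPM in the other 6 libraries, and their median was 0.84 with the replicate block. The part of these shifts in cell make-up in the member levels was not tested.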

How the data were processed

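Messenger RNA from 7 fetal liver libraries (4 wild type, 3 PCBP2 knockout; Trizol, TruSeq stranded, per the labels) had been counted by the authors. The files deposited for each library give unnormalised counts by gene; cutadapt 1.4.2, TopHat2, HTSeq, DESeq2, DESeq and build mm10 are named per the submitters' processing notes, whose settings the sources used here do not give. The authors' deposited table holds a baseline signal (mean normalized count), a log2 fold change with its standard error, a Wald score, and a p-value, unadjusted and adjusted.

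HTSeq summary lines (reads in no gene were 4.89 to 7.61% of reads) stayed out. Counts were fitted in R 4.3.3 with edgeR 4.0.16: filterByExpr, TMM, group as the only term, quasi-likelihood test, Benjamini-Hochberg adjustment over 16226 genes, calls at 0.05. Gene names came from the authors' table, then GENCODE M21, which gave positions and exon lengths; sequences came from M21 transcripts and RefSeq promoters (GRCm38.p6). The fit was tested on simulated data.

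The members, 23 lists of related and cell type genes (391 genes) and the tests were chosen with earlier results of these data known. Named were all members, the 3 genes of each pathway list with the smallest p, cluster neighbours, leading or called markers, and per member the 3 genes most alike. Of the marker genes, those a result turns on are named. A few items that these rules pick are not reported here. Alternatives were RLE and total-count scaling, no low-count filter, at least 5 CPM in 3 libraries, DESeq2 1.42.0, limma-voom 3.58.1, a replicate block and each library left out. Replicates differed by more than counting noise (chi-square per degree of freedom from 32.1).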

Additional observations from a re-analysis of the deposited data

Results flagged for a closer look

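Of the 10 members and Pcbp2, each checked for a stray library among the 4 wild-type ones, 1 gene had one: Pcbp2 in wild-type library 1, at 165 CPM, against 329 to 347 CPM in the other wild-type libraries (a gap of 0.90 of the group's whole range). By chance about 1 in 20 such groups is picked out. The same library was the lowest wild-type one for Ecm1, Fbln1, Fn1 and Bgn and the highest for Lum, Dcn and Ogn; without it the log2 fold change of Lum was -0.56 (adjusted p = 0.0239, edgeR).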

How the results depend on the processing

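Genes called higher numbered 651 with total-count scaling, 617 with DESeq2 and 852 with the replicate block, against 258, and genes called lower numbered 1057 with DESeq2 and 1204 with the block, against 556. Leaving out 1 library at a time gave 24 to 418 higher and 116 to 753 lower, and 0 to 2 members lower, against 2. Members called higher numbered 1 with DESeq2 (Vcan) and 2 with the block (Vcan and Ecm1), against 0. The block uses the title numbers, of which only 3 and 4 occur in both groups. Numbers 1, 2 and 5 each occur in 1 library, so those libraries add nothing to its group difference. Its estimates and calls rest on libraries 3 and 4 of each group and are not comparable with those of the other fits. Same-numbered libraries deviated together (correlation 0.32 and 0.26), but the labels do not say that a number marks anything shared. With the block the log2 fold change was 0.011 for Ogn, 0.0121 for Postn and 0.16 for Aspn, each of which was negative without it, and -0.08 for Dcn; with 1 library left out that of Fn1 lay between -0.0044 (knockout library 3) and 0.287 (wild-type library 3). The cause of these changes was not tested. Of 140 member values under alternatives, 129 kept their direction and side of the threshold. Most of these belong to members that were not called and stayed so. Of the called members, Lum kept its call in 13 of 14 alternatives and Mgp in 10 of 14. Of 23 called genes followed from the lists, 19 lost their call without knockout library 5, and 2, Col14a1 and Tnc, kept it under every alternative run. Without knockout library 5 the calls over all genes were 24 higher and 116 lower, against 258 and 556, so this loss was not particular to the lists. A floor of 3 reads corresponds to 0.0662 to 0.102 CPM, far below all members. Omd, Kera, Ecm2, Thy1 and, in wild type, Myh6 and Nppa rest on at most 70 reads in a library (Thy1). Ecm2 had 11 to 44 reads in a library.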
